A study of Oryza sativa Japonica Group with 8 samples.

Results

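The genes described here are the 947 genes of rice chromosome 11 that were expressed in early-stage meristems, out of 18254 expressed genes in all. They were chosen by 2 properties: a RAP identifier that begins with Os11g, which places a gene on chromosome 11, and a level that averaged 1 FPKM or more across the 8 libraries. FPKM is the authors' unit of transcript abundance, a count of fragments scaled for the length of the gene model and the size of the library. The level filter uses the measured values, so the levels of these genes are given as a description. The question was where along the chromosome the osg1l2 mutant and the wild type differ. Chromosome 11 was picked with earlier results of these data known, including its high share of changed genes, so that share is described below and supports nothing.

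The sequenced RNA came from early-stage meristems, labelled as enriched in PBMs and ePBM/AMs, of Oryza sativa Japonica Group, cultivar Nipponbare. One group of 4 libraries came from an osg1l2 single mutant and the other 4 came from a wild type control of the same cultivar. Both groups grew in long days (16 hours of light at 28 °C, 8 hours of dark at 26 °C) and were sampled after 12 days in short days with 12 hours of light. The labels name no allele, line or mutation, and they do not say whether plants were pooled or whether replicates came from separate plants, so the p-values reflect how far these libraries vary, which may be technical.

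OsG1L2 belongs to the ALOG family, plant nuclear proteins that act in the development of shoots, inflorescences and flowers. Rice chromosome 11 is known for its many disease resistance genes of the NBS-LRR type, intracellular receptors that often stand in tandem groups of similar copies. The ends of the short arms of chromosomes 11 and 12 also share a recent duplication. Reads from near-identical neighbours or from the copies on chromosome 12 can be split between gene models, and which members this touches was not tested. RAP identifiers are numbered along each chromosome, mostly in steps that leave room for later models, so their order gives the order of the genes, while distances in bases were not used here. The deposited tables pair no identifier with a gene name, and none of the Os11g identifiers was found in the reference gene table used here, so genes are given by identifier and without a role. For the same reason the level of OsG1L2 and of tissue markers was not checked.

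Chromosome 11 held 2425 rows of the deposited FPKM table. Of these, 39.1% reached the level filter, against 48.8% of the rows of the other chromosomes, and 525 were listed at 0 in all 8 libraries. The rows nearest to the filter were Os11g0227600, at a mean of 0.992 FPKM just outside it, and Os11g0234100, at 1.01 FPKM just inside. The median level of the members was 4.23 FPKM (quartiles 2.16 and 8.72), against 5.29 FPKM (quartiles 2.63 and 11.3) for expressed genes of the other chromosomes. The highest member averaged 635.7 FPKM. Rows of chromosome 11 took between 4.58% and 4.75% of the summed FPKM in the wild type libraries and between 4.71% and 4.90% in the osg1l2 libraries. These ranges overlapped only through wild type replicate 2, at 4.75%. Without it, a choice made after its value was seen, the wild type libraries lay at 4.58% to 4.63%, below all osg1l2 libraries. The summed FPKM of chromosome 11 itself overlapped, at 10388 to 10602 in wild type and 10105 to 10566 in osg1l2. The sum over all rows was 218558 to 231675 in wild type and 213940 to 221906 in osg1l2.

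On the first principal component of the members' log2(FPKM + 1) values, which carried 55.5% of their variance, all wild type libraries lay at -3.85 or below and all osg1l2 libraries at 4.41 or above. Wild type replicate 2 stood apart on the second component (17.2% of the variance), at -7.10 against -0.38 to 3.07 for the other wild type libraries. Neither trait was particular to chromosome 11. Over all genes the first component (40.5%) also separated the genotypes, at -11.5 or below and 13.2 or above. On the second, wild type replicate 2 lay at -28.4 against 4.87 to 10.8 for the other wild type libraries. Results that rest on this library are therefore also given without it. Sequencing depth is unknown for all 8 libraries, and in these bulk samples fewer cells of a type and less RNA per cell cannot be told apart.

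Of the 947 members, 41 (4.33%) differed between the genotypes, 24 higher and 17 lower in osg1l2 (limma on log2(FPKM + 1), called at a Benjamini-Hochberg adjusted p under 0.05 over all 18254 genes). Over all tested genes 1.93% were called, 0.898% higher and 1.03% lower. The direction over all genes turned with the scaling: 164 were higher and 188 lower here, against 205 and 137 with median-of-ratios scaling and 210 and 130 with quantile normalization. On chromosome 11 these scalings gave 26 higher and 13 lower, and 26 higher and 14 lower. On chromosome 12, the chromosome with the next highest share, 3.17% of 1010 genes were called, and on the remaining chromosomes the share lay between 1.30% and 2.58%. Without wild type replicate 2 the same test called 67 of 949 genes of chromosome 11 (7.06%), beside 4.53% of all genes. Without wild type replicate 1, osg1l2 replicate 3 or osg1l2 replicate 4 it called 26, beside 0.849%, 1.01% and 1.26% of all genes. Without osg1l2 replicate 1 it called 25, beside 0.892% of all genes. Higher genes were in the majority among the 41, but not without wild type replicate 2 (32 higher, 35 lower) or osg1l2 replicate 2 (13 higher, 15 lower), nor with library weights (42 higher, 47 lower) or at a mean of at least 5 FPKM (7 higher, 8 lower).

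**Figure D1:**
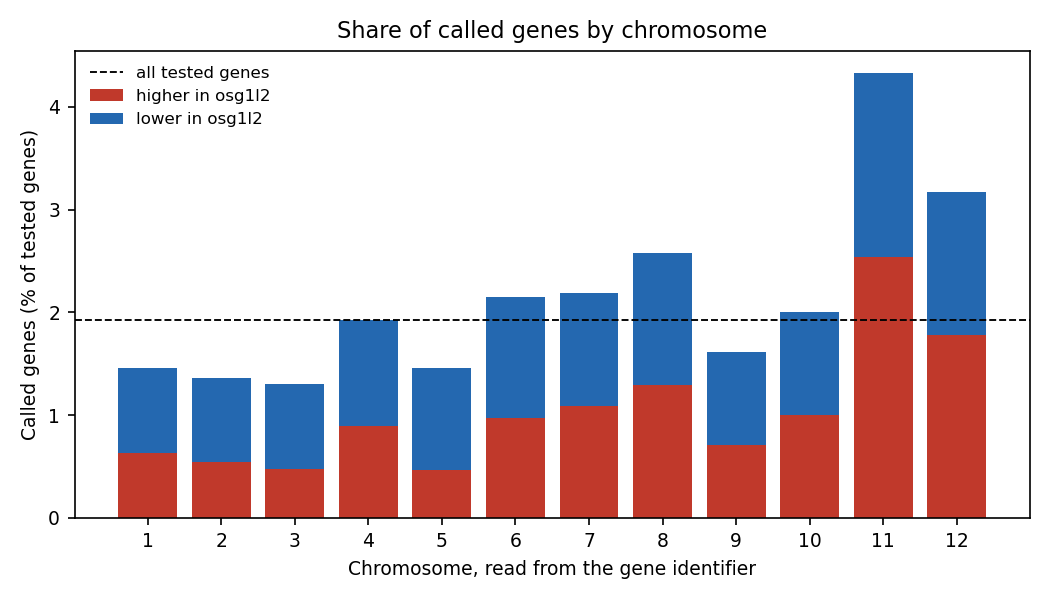
Share of tested genes called different between osg1l2 and wild type on each of the 12 chromosomes, in percent, with the higher and lower genes stacked and the share over all tested genes (1.93%) as a dashed line. Chromosome 11 stands at 4.33% and chromosome 12 at 3.17%.

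The median change of the called genes was larger on chromosome 11 than among called genes in general. For the 24 higher genes the median log2 fold change was 0.69, against 0.62 over all called higher genes, and for the 17 lower genes it was -0.69, against -0.44. Fold changes are given as the mutant relative to wild type after log2(FPKM + 1), a scale that understates the change of low genes. Of the 947 members 14 (1.48%) were called with a log2 change of at least 1, 9 higher and 5 lower, against 0.4% of all tested genes. These sizes come from the same contrast as the calls and were not tested apart from them.

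The called genes were low in expression. Their median level was 2.11 FPKM for the higher and 3.14 FPKM for the lower genes, against 3.24 and 5.62 FPKM for all called higher and lower genes. In 15 of the 41 called genes one genotype averaged under 1 FPKM, 11 of them low in wild type and 4 low in osg1l2. These genes passed the filter only through the genotype in which they were high, so their difference follows in part from the filter. Counting only genes that averaged at least 1 FPKM in each genotype, 26 of 908 members were called (2.86%), 13 higher and 13 lower, against 1.55% of all such genes. That count leaves out the strongest changes by construction.

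Measures over all members were closer to those of the genome. The median log2 fold change of all 947 members was -0.02, against -0.04 over all tested genes. Among uncalled members the median size of the change was 0.084, against 0.088 over all uncalled genes. The 4 libraries of one genotype lay above the 4 of the other in 135 members (14.3%), 59 higher and 76 lower. Over all tested genes this held for 11.8%, with 4.11% higher and 7.69% lower. An unadjusted limma p under 0.05 was reached by 21.5% of members and by 19.5% of all genes.

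**Figure D2:**
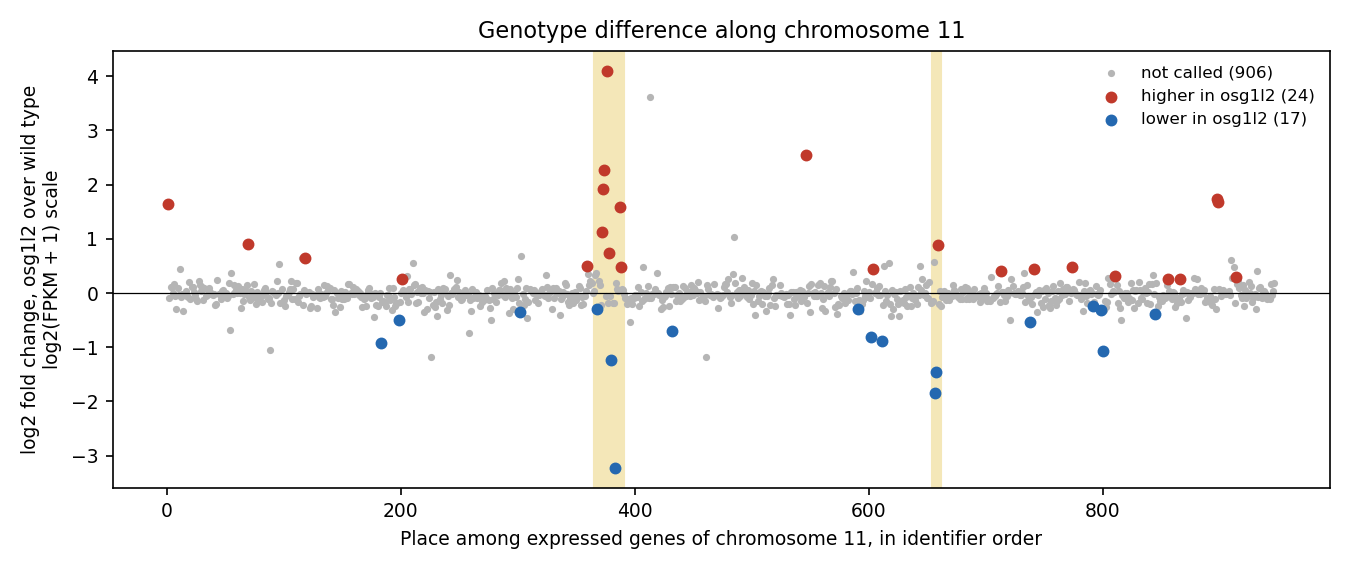
Log2 fold change (osg1l2 over wild type, log2(FPKM + 1) scale) of each of the 947 expressed genes of chromosome 11 against its place in identifier order; grey points were not called, red and blue points were called higher (24) and lower (17), and the shaded bands mark the 2 clusters. Most called genes stand alone, and the tallest called points crowd into the band at places 368 to 388.

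Called genes were not spread evenly along the chromosome, though their spacing was not tested. Cut into 19 consecutive windows of 50 members, 14 windows held 1 to 3 called genes, 2 held none and 3 held at least 4. The eighth window, from Os11g0218100 to Os11g0244800, held 11 of the 41, 8 higher and 3 lower. It contains the first cluster described below, with 10 called genes. Of those, 5 averaged under 1 FPKM in wild type and 1 in osg1l2, and these passed the level filter only through the other genotype. The sixteenth window, from Os11g0582300 to Os11g0605300, held 4 (1 higher, 3 lower), and the eighteenth, from Os11g0637800 to Os11g0677500, held 4, all higher. The longest gap between called genes ran over 113 uncalled members, between Os11g0258900 and Os11g0454650.

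Window medians of the log2 fold change lay between -0.07 and 0.01. The eighth window had a median of 0.01, with 25 of its 50 members higher in osg1l2. It had the largest median size of the changes, 0.18, against 0.065 to 0.15 in the other windows. The genotypes were separated in 17 of its members, against a median of 7 over the full windows. All 41 called genes of the chromosome were separated, so the 17 include the 11 called genes of the window and are no independent measure. The seventeenth window, from Os11g0605500 to Os11g0637700, had the next highest median size, 0.15. It held 2 called genes, and 15 of its 50 members had an unadjusted limma p under 0.05, against 19.5% of all tested genes.

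**Figure D3:**
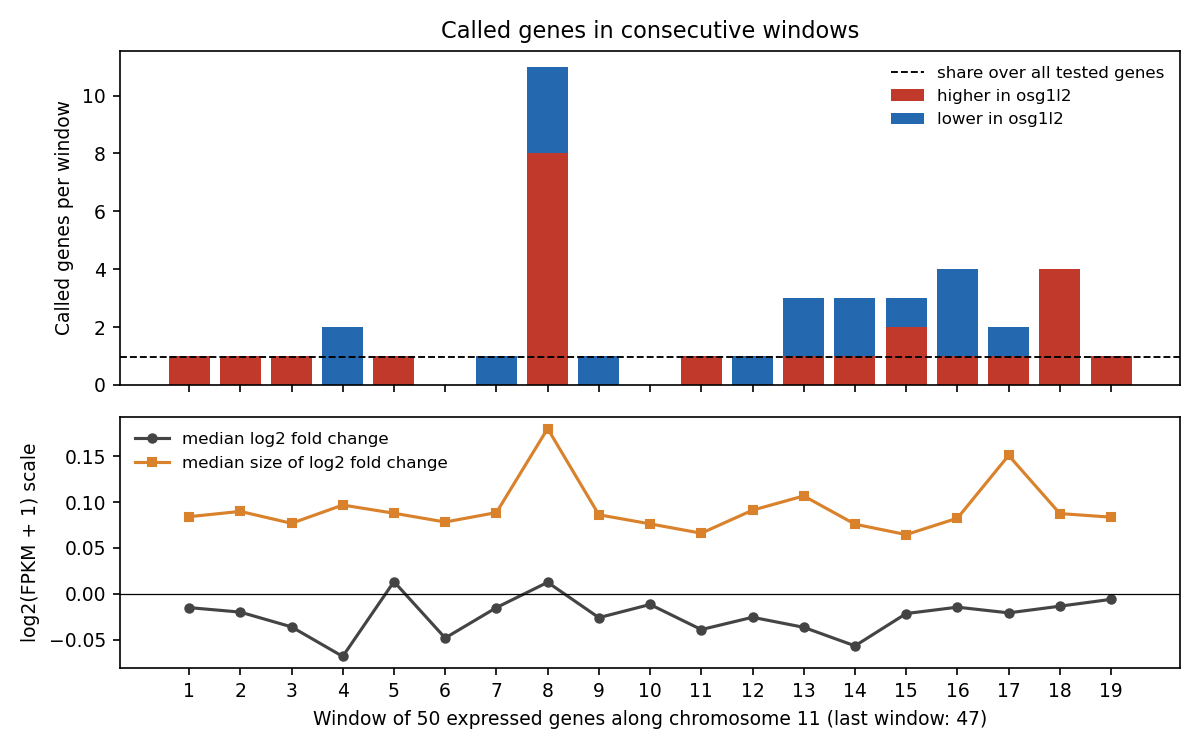
Upper panel: called genes in each window of 50 expressed genes along chromosome 11 (the last holds 47), higher and lower stacked, with the share over all tested genes (1.93%) as a dashed line. Lower panel: median log2 fold change and median size of the log2 fold change over all members of the window; the eighth window holds 11 called genes and a median size of 0.18, with a median change of 0.01.

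Neighbouring members were both called in 7 pairs, made up of 12 genes. Members were counted as neighbours also where rows under the level filter lay between them. Both genes were higher in 4 pairs, both were lower in 2, and the directions were opposite in 1. Over all 12 chromosomes there were 35 such pairs, of which chromosome 6 also held 7, with 31 called genes, and chromosome 12 held 6. A cluster was defined as at least 3 called genes, each followed by the next with at most 4 uncalled members between. By this rule chromosome 11 had 2 clusters with 13 of its 41 called genes, and all chromosomes together had 9 clusters with 42 called genes. Leaving out osg1l2 replicate 1, 2 or 3 lowered the pairs on chromosome 11 to 4. Os11g0674400, a gene of 1 pair, then fell under the level filter and was not tested.

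The first cluster, from Os11g0226400 to Os11g0240600, held 10 called genes among 21 members, 7 higher and 3 lower. Of these 10, 5 averaged under 1 FPKM in wild type and 1 did so in osg1l2, so 6 passed the level filter only through the genotype in which they were high, and 4 averaged at least 1 FPKM in both genotypes. The extent of the cluster also depends on which rows are tested. With no level filter all 10 kept their call (limma adjusted p up to 0.043), but low rows then counted among the uncalled ones between them. The largest cluster of the chromosome held 5 called genes in that setting, from Os11g0227250 to Os11g0229000. It held 12 without wild type replicate 2 and 14 with library weights. The largest cluster held 7 without osg1l2 replicate 1, 2 or 3, where Os11g0234100 fell under the level filter and was not tested. A cluster on chromosome 12, from Os12g0631100 to Os12g0633700, held 8 called genes among 12 members. Of its 10 called genes 7 changed by at least 1 on the log2 scale, while 2 of the 8 did so in the chromosome 12 cluster. With the first cluster set aside, 31 of the remaining 926 members were called (3.35%), and 0.756% of them were called with a log2 change of at least 1.

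At the left edge, Os11g0226400 was at 3.43, 3.42, 3.59 and 3.14 FPKM in wild type replicates 1 to 4 and at 2.44, 2.57, 2.60 and 2.79 FPKM in osg1l2 replicates 1 to 4. The ranges did not overlap, and the fall was small, a log2 fold change of -0.29 (SE 0.057, limma adjusted p = 0.041). The call was lost in 9 of 16 alternatives, with an adjusted p of up to 0.17 in limma, among them the removal of any single library other than wild type replicate 2.

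3 called genes followed each other directly among the members, all higher in osg1l2, with rows under the level filter between them. The first, Os11g0227250, was at 1.36, 1.50, 1.31 and 1.17 FPKM in wild type and at 3.85, 4.14, 4.12 and 4.15 FPKM in osg1l2. Every osg1l2 library was far above every wild type library, with a log2 fold change of 1.12 (SE 0.061, limma adjusted p = 8.5e-06). Next to it, Os11g0227800 was at 0.0932, 0.134, 0.0594 and 0.0716 FPKM in wild type and at 2.79, 4.16, 2.93 and 2.68 FPKM in osg1l2. It was near 0 in all wild type libraries and rose in all osg1l2 libraries (log2 fold change 1.91, SE 0.11, limma adjusted p = 1.1e-05). The third, Os11g0229000, had an entry of 0 in each of the 4 wild type libraries and was at 3.47, 4.13, 3.79 and 3.83 FPKM in osg1l2 (limma adjusted p = 5.8e-08). No fold is given against a group listed at 0, since such an entry may be a failed estimate.

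The largest rise among the members lay 2 places further on. Os11g0233400 was at 0.135, 0.135, 0.121 and 0.0970 FPKM in wild type and at 18.1, 19.3, 18.4 and 17.2 FPKM in osg1l2. Its 4 osg1l2 values lay within 1.12 times of each other and averaged 149.9 times the wild type mean, and the log2 fold change was 4.10 (SE 0.053, limma adjusted p = 8.7e-11). Os11g0234100, again 2 places on, was at 0.385, 0.466, 0.605 and 0.587 FPKM in wild type and at 1.30, 1.68, 1.55 and 1.51 FPKM in osg1l2. It was low in both genotypes and did not overlap between them (log2 fold change 0.73, SE 0.083, limma adjusted p = 0.0017).

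Genes that fell stood among those that rose. Os11g0234300 was at 4.83, 4.28, 4.91 and 4.67 FPKM in wild type and at 1.48, 0.936, 2.46 and 1.07 FPKM in osg1l2. The wild type libraries were tight and the osg1l2 libraries spread over 2.63 times, all below the wild type (log2 fold change -1.23, SE 0.16, limma adjusted p = 0.0045). Os11g0235700 was at 9.54, 10.3, 10.2 and 10.4 FPKM in wild type and at 0.0553, 0.0213, 0.190 and 0.540 FPKM in osg1l2. This was the largest fall among called genes of the chromosome. All osg1l2 libraries were at 0.540 FPKM or below and differed by up to 25.4 times among themselves (log2 fold change -3.23, SE 0.12, limma adjusted p = 3.4e-07).

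The right edge was formed by another pair of adjacent members, both higher, again with rows under the level filter between them. Os11g0237900 was at 0.703, 0.887, 0.533 and 0.599 FPKM in wild type and at 4.77, 2.51, 4.85 and 4.31 FPKM in osg1l2. Its osg1l2 replicate 2 was the lowest of the mutant libraries and still above all wild type libraries (log2 fold change 1.58, SE 0.16, limma adjusted p = 0.00076). Os11g0240600 was at 1.40, 1.42, 1.72 and 1.64 FPKM in wild type and at 2.69, 2.82, 2.50 and 2.14 FPKM in osg1l2. The rise was modest (log2 fold change 0.47, SE 0.080, limma adjusted p = 0.021), and the call was lost in 6 of 16 alternatives, with an adjusted p of up to 0.11, including those without wild type replicate 1 or 4 or without osg1l2 replicate 1, 2 or 3. The other 8 called genes of the cluster passed in every alternative that tested them.

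**Figure D4:**
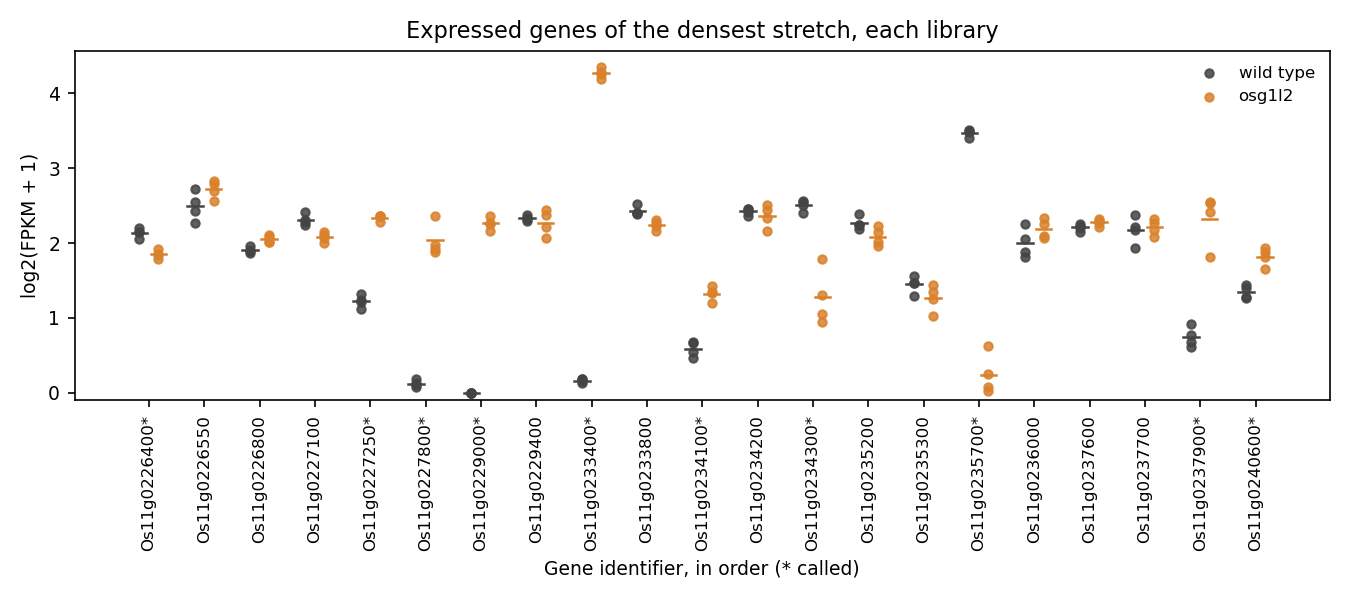
Expression of the 21 expressed genes from Os11g0226400 to Os11g0240600 in each library, as log2(FPKM + 1); points are the 4 libraries of each genotype, short lines are their means, and an asterisk marks a called gene. Genes with wide gaps between the genotypes alternate with genes whose values overlap or nearly do.

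The 11 uncalled members between them had log2 fold changes between -0.23 and 0.22, 5 higher and 6 lower, at levels from 1.58 to 5.12 FPKM. The median size of their changes was 0.178, against 0.084 for all uncalled members of the chromosome. Their lowest limma adjusted p was 0.089, although 5 of the 11 reached an unadjusted p under 0.05 and 3 had no overlap between the genotypes. Over all tested genes these shares were 19.5% and 11.8%, and 11 members are few for a comparison. One of them, Os11g0229400, between the genes Os11g0229000 and Os11g0233400, was at 3.91, 4.17, 4.02 and 3.98 FPKM in wild type and at 4.43, 4.18, 3.18 and 3.62 FPKM in osg1l2, with overlapping ranges. Outside the cluster, 1 of the 20 members before it and none of the 20 after it were called at an adjusted p under 0.05 in limma. With 1.93% of all tested genes called, 20 members are too few for these counts to mark a border. The median size of the change was 0.13 and 0.10 in these flanks.

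The stretch also holds 46 rows under the level filter, and 11 of its 67 rows were listed at 0 in all libraries. A test with no level filter called 4 of these low rows. Low and higher rows together, that test called 1.32% of all 32542 rows tested and 3.16% of the 1900 on chromosome 11. Os11g0227300 had an entry of 0 in each of the 4 wild type libraries and was at 1.18, 1.08, 1.21 and 1.13 FPKM in osg1l2 (limma adjusted p = 7.6e-07 with no filter). Os11g0227600 was at 0.000343, 0.0946, 0.0649 and 0.137 FPKM in wild type and at 2.22, 1.78, 1.76 and 1.88 FPKM in osg1l2 (limma adjusted p = 6.4e-05 with no filter). Both lie between the called genes Os11g0227250 and Os11g0227800 and moved the same way. The other low rows were Os11g0229600, higher in osg1l2 (limma adjusted p = 0.0013 with no filter), and Os11g0233201, lower (limma adjusted p = 0.014 with no filter).

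The second cluster, from Os11g0539600 to Os11g0539800, was a run of 3 directly adjacent members with both directions. Os11g0539600 was at 3.47, 2.59, 3.25 and 2.74 FPKM in wild type and at 0, 0.0517, 0.0754 and 0.375 FPKM in osg1l2. Os11g0539700 was at 2.23, 1.84, 2.29 and 1.62 FPKM in wild type and at 0.0308, 0, 0.159 and 0.177 FPKM in osg1l2. Both fell in every osg1l2 library, to at most 0.375 and 0.177 FPKM, with log2 fold changes of -1.84 (SE 0.12, limma adjusted p = 2.7e-05) and -1.45 (SE 0.10, limma adjusted p = 5.3e-05).

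The third gene of the run moved the other way. Os11g0539800 was at 13.1, 15.6, 13.1 and 13.4 FPKM in wild type and at 25.9, 27.4, 26.4 and 25.5 FPKM in osg1l2. It was well expressed in both genotypes, and its mean rose 1.91 times with no overlap (log2 fold change 0.89, SE 0.063, limma adjusted p = 5.7e-05). Just beyond it, the low row Os11g0540000 had an entry of 0 in every wild type library and was at 1.11, 0.917, 1.03 and 1.05 FPKM in osg1l2 (limma adjusted p = 4.7e-06 with no filter). None of the 20 members on either side of the run was called at an adjusted p under 0.05 in limma. With 1.93% of all tested genes called, 20 members are too few for this count to mark a border. No source used here gives the strandedness of the libraries, and reads of overlapping or antisense models among these neighbours cannot be told apart.

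Outside the clusters 2 pairs of neighbours were called. In the first pair Os11g0604700 was at 3.79, 3.31, 3.55 and 3.67 FPKM in wild type and at 2.49, 2.62, 2.86 and 2.82 FPKM in osg1l2. This small fall (log2 fold change -0.31, SE 0.060, limma adjusted p = 0.037) lost its call in 9 of 16 alternatives, with an adjusted p of up to 0.14, among them the removal of any single library other than wild type replicate 2. Its neighbour Os11g0605300 was at 9.43, 9.09, 11.2 and 9.54 FPKM in wild type and at 4.30, 4.20, 3.40 and 4.63 FPKM in osg1l2. Every mutant library lay below every wild type library, with a log2 fold change of -1.08 (SE 0.088, limma adjusted p = 0.00018). The low row Os11g0605100, between these genes, moved the other way. It was at 0.00859 to 0.0937 FPKM in wild type and at 0.249 to 0.421 FPKM in osg1l2 (limma adjusted p = 0.017 with no filter).

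The other pair lay near the end of the chromosome. Os11g0673600 was at 0.0453, 0.0351, 0.110 and 0.0703 FPKM in wild type and at 2.61, 2.40, 2.53 and 2.69 FPKM in osg1l2 (log2 fold change 1.74, SE 0.068, limma adjusted p = 5.2e-07). Os11g0674400 was at 0, 0, 0.0217 and 0 FPKM in wild type and at 2.12, 2.29, 2.51 and 1.92 FPKM in osg1l2 (limma adjusted p = 2.6e-06). Both were near 0 in wild type and rose to about the same level. The low rows Os11g0673900, between them, and Os11g0677050, after them, were also higher in osg1l2, at 0.671 to 1.21 FPKM and 0.961 to 1.71 FPKM against 0 to 0.0356 FPKM and 0 in wild type (limma adjusted p = 0.0024 and 0.0026 with no filter).

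**Figure D5:**
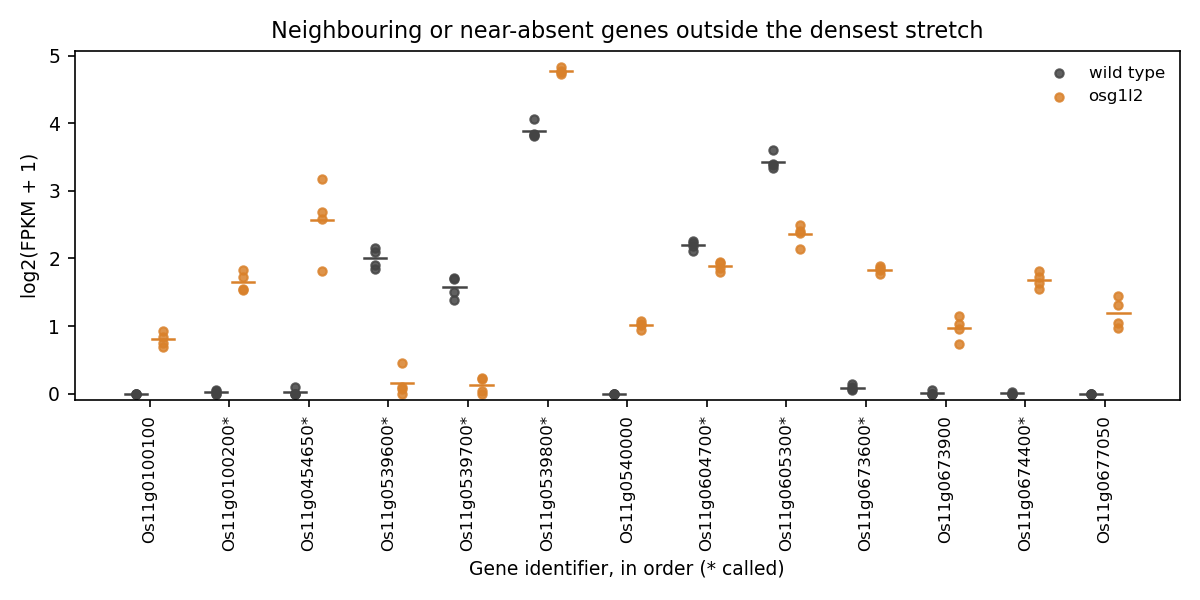
Expression outside the first cluster of genes in called neighbouring pairs, or at most 0.2 FPKM in one genotype and at least 0.5 FPKM in the other, as log2(FPKM + 1); points are the 4 libraries of each genotype, short lines are their means, and an asterisk marks a called gene. Rows under the level filter were not tested in the comparison that gave the asterisks. In 8 of the 13 genes the wild type is at or near 0, and in Os11g0539600 and Os11g0539700 the mutant is at 0.375 FPKM or below.

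Some rows were listed at or near 0 in one genotype and clearly expressed in the other. Taking as limits under 0.1 FPKM in all 4 libraries of one genotype and at least 1 FPKM in all 4 of the other, chromosome 11 held 5 of the 28 such near-absent rows of the whole table (0.074% of 37859 rows). All 5 were low in wild type, as were 27 of the 28 in the whole table. An entry of 0 may be a failed estimate, which bears on Os11g0229000 and Os11g0227300, at 0 in every wild type library. The 5 rows were Os11g0229000 and Os11g0227300 of the first cluster, Os11g0674400, and 2 genes that stood apart from other called members, Os11g0100200 and Os11g0454650.

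Os11g0100200, the first expressed gene in identifier order, was at 0.0355, 0.0279, 0 and 0 FPKM in wild type and at 1.89, 1.91, 2.54 and 2.31 FPKM in osg1l2 (log2 fold change 1.63, SE 0.088, limma adjusted p = 7.2e-06). The low row before it, Os11g0100100, had an entry of 0 in every wild type library and was at 0.688, 0.790, 0.613 and 0.909 FPKM in osg1l2 (limma adjusted p = 0.00042 with no filter). Os11g0454650 was at 0.0662, 0, 0 and 0 FPKM in wild type and at 5.43, 8.02, 2.53 and 5.02 FPKM in osg1l2. Its mutant libraries differed by up to 3.17 times among themselves and all lay far above the wild type (log2 fold change 2.54, SE 0.23, limma adjusted p = 0.00039).

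At looser limits of 0.2 and 0.5 FPKM the class held 14 rows on chromosome 11, 13 higher and Os11g0539700 lower. Rows of the other chromosomes were not counted at these limits, so neither number can be set against the whole table. All but Os11g0454650 lay in 4 places: the first 2 rows named above, the first cluster, the run at Os11g0539700 with Os11g0540000, and the rows from Os11g0673600 to Os11g0677050. Whether such rows are grouped beyond the rest of the genome was not tested.

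The 22 called genes not named so far, 12 higher and 10 lower, all changed by less than 1 on the log2 scale. The higher ones changed by 0.26 to 0.90 on the log2 scale at mean levels from 1.28 FPKM up to that of Os11g0158500, and the lower ones by 0.24 to 0.92 at 1.78 to 137.1 FPKM. Their limma adjusted p-values ranged from 0.00047 to 0.044 for the higher and from 0.0041 to 0.047 for the lower genes. Os11g0158500 averaged 45.4 FPKM ± 1.07 over the wild type libraries and 54.6 FPKM ± 2.87 over the mutant ones (SD, n = 4 each), a log2 fold change of 0.26 (limma adjusted p = 0.039). The most abundant of the 22 was Os11g0602500, which averaged 148.5 FPKM ± 4.94 over the wild type libraries and 125.7 FPKM ± 1.88 over the mutant ones (SD, n = 4 each), with a log2 fold change of -0.24 (limma adjusted p = 0.037).

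A large difference was not enough for a call where libraries disagreed. 5 uncalled members changed by at least 1 on the log2 scale, 2 higher and 3 lower, and they are named after their values were seen. Os11g0247350, at place 413 soon after the first cluster, was at 0.0190, 24.2, 0.000375 and 10.3 FPKM in wild type and at 65.2, 46.7, 63.3 and 31.0 FPKM in osg1l2. Every mutant library was above every wild type library, but the wild type split into near absence in replicates 1 and 3 and clear expression in replicates 2 and 4 (log2 fold change 3.61, SE 0.98, limma adjusted p = 0.10). Os11g0167800 was at 104.9 FPKM in wild type replicate 2 and at 2.78 to 6.21 FPKM in the other wild type libraries, against 2.47 to 6.16 FPKM in osg1l2. Its log2 fold change of -1.18 (SE 0.92, limma adjusted p = 0.51) came with that 1 library. The remaining 3 were Os11g0127951, Os11g0291450 and Os11g0307300, with limma adjusted p-values of 0.12, 0.061 and 0.12.

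The authors' own comparison rests on the same libraries. Of 2410 entries for chromosome 11 in the authors' deposited table, 62 had a q-value under 0.05 (33 higher, 29 lower), or 2.57%, against 2.02% of all 37619 entries. Of these, 26 were also called here, all in the same direction, which is 63.4% of the 41 calls and 41.9% of the 62 entries. Of the 36 called in the authors' deposited table alone, 16 were under the level filter here and 14 had an unadjusted limma p under 0.05. One of them was Os11g0167800, for which the authors' deposited table gives q = 0.0024.

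In the first cluster the authors' deposited table called 11 of 67 entries, 8 of them among the 10 called here and the other 3 the low rows Os11g0227300, Os11g0227600 and Os11g0229600. The exceptions were Os11g0226400 (q = 0.15) and Os11g0234300 (q = 0.14 in the authors' deposited table). For Os11g0233400 the authors' deposited table gives a log2 fold change of 7.33 and for Os11g0235700 one of -6.28, with no pseudocount. It gives q = 0.76 for Os11g0100200, 0.41 for Os11g0454650 and 0.51 for Os11g0674400, which were called here. Entries listed at 0 in wild type with q under 0.05 numbered 8 on chromosome 11 in the authors' deposited table, of 32 in all, and none was at 0 in osg1l2.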

How the data were processed

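The authors deposited one FPKM value per gene and library for 8 libraries. The submitters' processing notes name the genome build IRGSP-1.0. The aligner, like the program that made the values, was not given in the sources used here. A second deposited table gives the authors' log2 fold change, a q-value and, per the file headers, 1 value per genotype, a score of unnamed unit that was used only to find entries at 0. Depth is unknown, since the sources used here give FPKM estimates and no read counts.

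Genes that averaged 1 FPKM or more were compared on log2(FPKM + 1) with limma 3.58.1 in R 4.3.3 (trended variance prior, two-sided, Benjamini-Hochberg over 18254 genes), and Os11g genes were then taken out. Genes were named if they were in a cluster or an adjacent called pair, near absent in one genotype, or among the 5 largest rises or falls. Low rows beside them, and exceptions marked as such, were added after their values were seen. Members, cluster rule and classes were chosen with earlier results of these data known. Summaries used Python 3.11.15, numpy 2.4.6, pandas 2.3.3 and matplotlib 3.10.9.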

Additional observations from a re-analysis of the deposited data

Results flagged for a closer look

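Among 44 groups of 4 values (the 19 named genes in each genotype and library measures of the chromosome), 4 had 1 library far from the other 3, with a gap above 0.829 of the group's range. Chance flags about 1 in 20 such groups, and genes share libraries. In Os11g0227250 osg1l2 replicate 1, at 3.85 FPKM, lay below the other mutant libraries (gap 0.88 of the range). In Os11g0539800 wild type replicate 2, at 15.6 FPKM, lay above the other wild type libraries (gap 0.88). In Os11g0454650 and Os11g0674400 a single wild type library was above 0, at 0.0662 and 0.0217 FPKM, which makes the gap 1.0 of the range. In each of these 4 genes the genotypes stayed apart, as they did in all 41 called genes of the chromosome.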

How the results depend on the processing

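The 41 called genes (24 higher, 17 lower), 7 adjacent pairs and 13 genes in clusters were recomputed under each alternative. Called genes in all numbered 15 (7 higher, 8 lower) at a mean of at least 5 FPKM, with 2 pairs and 0 genes in clusters, where fewer genes were tested. With no filter there were 39 higher genes, 11 pairs and 24 genes in clusters, of at most 5 each, and with library weights 89 genes (42 higher, 47 lower), 13 pairs and 37 in clusters. A mean of at least 1 FPKM in each genotype, added after seeing the data, left 26 (13 and 13) by construction. With the replicate number as a block there were 22 (13 higher, 9 lower), 19 of them among the 41, with 5 pairs. The numbers did not pair the libraries: deviations correlated at 0.0687, -0.0175, -0.0914 and -0.12 for replicates 1 to 4, and the best match of 1 of 8 libraries had the same number. With 1 library left out in turn, 25 to 67 genes were called (13 to 32 higher, 8 to 35 lower), with 4 to 8 pairs, 9 to 18 genes in clusters and 5 to 7 near-absent rows. At most 9 uncalled members between called ones put 20 genes in clusters. The fullest window of 25 members held 6. Near-absent rows numbered 1 at limits of 0.05 and 2 FPKM and 14 at 0.2 and 0.5 FPKM, directions fixed by the limits. With any single osg1l2 library left out, Os11g0100200, Os11g0234100 and Os11g0674400 fell under the level filter and were not tested. The same held for Os11g0539700 with any single wild type library left out. Beyond these genes, the cause was not tested for the weights, the block and single libraries. The other settings, rescaling included, kept these counts within 1.5 times. The share called on chromosome 11 was above that of all genes in all 18 fits, the main one included, by 1.56 to 3.31 times. The fits draw on the same libraries, and the chromosome was picked with its high share known, so this supports nothing. None of the 19 named genes changed direction, and 16 kept their call in every alternative that tested them. With depth unknown, its limits cannot be given.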
